A study of Rattus norvegicus with 23 samples.

Results

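Glycine tRNA is the most abundant tRNA source of small RNA in these rat sperm libraries, and the values below cover every glycine tRNA gene that the deposited tRNA table lists. Members were the table's entries whose names begin with tRNA-Gly, whatever their anticodon: 25 of 273 entries, made up of 11 with the anticodon GCC, 5 with CCC and 9 with TCC. Another 6 entries named tRX-Gly-NNN, which carry no assigned anticodon, were left out. Near-identical tRNA genes may share reads, so the genes of each anticodon were also summed, which gave 55 sums over the whole table. The samples were sperm of the cauda epididymis, the storage end of the epididymal duct, from male Long-Evans rats, 1 library to a rat. In the air group (n = 7) rats breathed filtered air at a chamber mean of 0.000 ppm ozone, in the 0.4 ppm group (n = 8) ozone at a mean of 0.401 ppm, and in the 0.8 ppm group (n = 8) ozone at a mean of 0.798 ppm. Each exposure lasted 4 h, and all 3 groups had 3 exposures in week 1 and 2 in week 2. The design text names 8 rats per group, while 7 air libraries are listed, and the question was whether the small RNA content of sperm differs after breathing this oxidant gas.

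Glycine tRNAs decode the GGN codons: those with the anticodon GCC read GGC and GGU, those with CCC read GGG and those with TCC read GGA. Mature sperm translate little, and much of their tRNA-derived RNA is found as fragments, cut in the anticodon loop by ribonucleases such as angiogenin. Fragments from the 5′ end of tRNA-Gly-GCC are among the best known small RNAs of mouse sperm, where they accumulate during transit through the epididymis and have been studied for their response to paternal diet. The deposited table gives a total for each tRNA gene with no read length or position, so a fragment and a whole tRNA cannot be told apart here, nor can the ends of a tRNA.

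The values are a normalised read signal: read counts that the submitters had scaled between libraries. Estimated from the smallest step between low values, the table held 164342 to 481504 reads per library (median 391901), with means of 379553 ± 50208 in air (SD, n = 7), 332350 ± 80586 at 0.4 ppm (SD, n = 8) and 360826 ± 96812 at 0.8 ppm (SD, n = 8). Glycine genes held 68790 to 191791 of those reads. The summed level of 6 male germ cell miRNAs of the miR-34 and miR-449 families was at least 144850 in every library, and miRNAs of other cell types were present too. All 5 listed epithelial miRNAs were above 0 and summed to 4208 to 15682 over libraries, the 3 muscle and stroma miRNAs to 9592 to 76992 and the 3 erythrocyte miRNAs to 78.6 to 1066. The 6 leukocyte miRNAs were all above 0 and summed to 864 to 1895, with 2 of them, miR-142-3p and miR-223-3p, at a mean under 10 over all libraries. In bulk RNA, fewer cells of a type and less RNA per cell cannot be told apart. Each library came from its own rat, so p-values reflect the variation among animals together with that among libraries, and these cannot be told apart.

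The libraries fell into a pair of sets that the groups share unequally. Each column name ends in an S number, and in the column order of the miRNA table these numbers run through once in the first 11 libraries and again in the other 12, with no number repeated within a set. What separates the sets is not stated. The first set held 2 of 7 air, 4 of 8 0.4 ppm and 5 of 8 0.8 ppm libraries, and the second set 5, 4 and 3. With the group in the model, limma called 72 of 273 entries between the sets (26.4%) and 14 of 55 sums (25.5%). Among glycine genes 8 of 25 were called: CCC-4-1, CCC-4-2 and TCC-2-2 higher in the second set, and TCC-1-1, TCC-1-5, TCC-2-1, TCC-3-1 and TCC-4-1 lower. None of the 3 glycine sums was called between the sets, and at an unadjusted p under 0.05 it was 0 of 3 as well. The sets were noticed after the data had been seen, and the main comparisons below are given both without and with them.

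As an isotype, tRNA-Gly held 40.1% ± 5.53 of the tRNA table (SD, n = 23) although it makes up 9.16% of the entries. It was the largest isotype in 21 of 23 libraries, with tRNA-Leu first in the other 2. tRNA-Leu followed with a mean share of 22.8%, tRNA-Glu with 11.1%, tRX-Gly with 5.93% and tRNA-Val with 5.08%. In the shallowest library, replicate 5 of the 0.8 ppm group, glycine held 41.9% of 164342 reads, with a 95% Wilson interval of 41.6% to 42.1% that covers counting error only. Counting error was thus far smaller than the spread between rats.

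The 3 anticodons were present at very unequal levels. Within the glycine signal, GCC held 79.2%, CCC 20.7% and TCC 0.128% on average. The GCC sum ranked first of all 55 sums in 22 of 23 libraries, and tRNA-Leu-CAA ranked first in the remaining 1. The CCC sum ranked 3 or 4, and the TCC sum between 38 and 42. In estimated reads, the GCC sum rested on 54619 to 150813 reads per library, the CCC sum on 14110 to 40853 and the TCC sum on 61 to 459, so the TCC values carry the largest counting error.

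**Figure D1:**
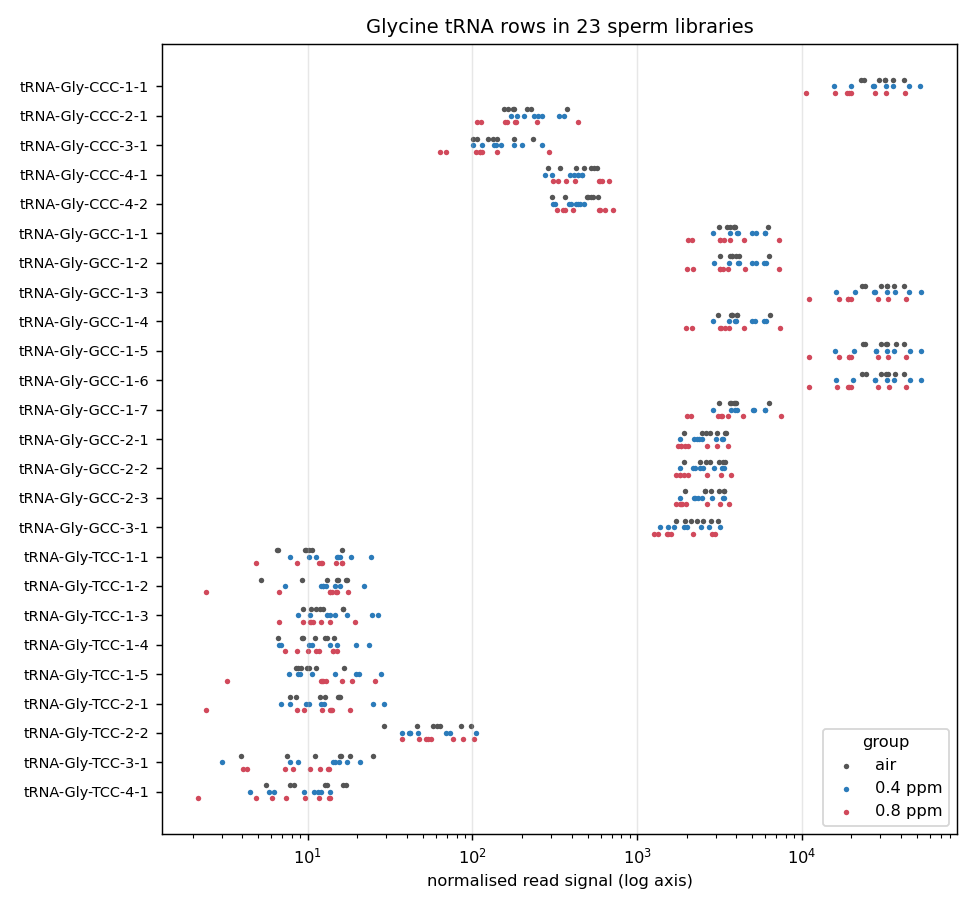
Normalised read signal (log axis) of the 25 glycine tRNA genes, 1 point per library, coloured by group. GCC-1-3, GCC-1-5, GCC-1-6 and CCC-1-1 stand at 10663 or more in every library, the other GCC genes between 1269 and 7513, the other CCC genes below 714 and the TCC genes below 106.

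The levels of the GCC genes formed steps that followed neither the anticodon nor the gene's number alone. In the genomic tRNA nomenclature, the first number of a name marks a distinct mature sequence and the second a gene copy, so copies that share the first number have the same mature tRNA. Among the 7 copies of GCC-1, GCC-1-3, GCC-1-5 and GCC-1-6 averaged 29315 ± 10478 (SD, n = 23), and GCC-1-1, GCC-1-2, GCC-1-4 and GCC-1-7 averaged 4120 ± 1324. The upper copies stood 7.11 ± 1.36 times the lower ones, with a range of 5.18 to 9.17 over libraries. That range split by library set, with 5.18 to 6.63 in the first set and 6.86 to 9.17 in the second. Copies of 1 name series were thus not all given the same signal.

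Inside each of these steps the copies were alike to the level of counting noise. For GCC-1-3, GCC-1-5 and GCC-1-6 the chi-square of the estimated reads about an even split averaged 1.28 per degree of freedom over the 23 libraries, where sampling alone gives about 1. It averaged 0.9998 for GCC-1-1, GCC-1-2, GCC-1-4 and GCC-1-7, 0.718 for the 3 GCC-2 copies, 0.993 for CCC-4-1 and CCC-4-2, and 0.913 for the 5 TCC-1 copies. Over all 7 GCC-1 copies it averaged 11801. TCC-2-1 and TCC-2-2 also differed from each other, at 39.0, with mean levels of 12.7 and 61.3. The GCC and CCC copies split this evenly move together, so counts of genes below are not counts of independent measurements. The 5 TCC-1 copies held 19 to 157 estimated reads together per library, so counting error could hide differences between them.

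CCC-1-1 had the level of the upper GCC copies, not that of the other CCC genes. Its ratio to the mean of GCC-1-3, GCC-1-5 and GCC-1-6 was 0.978 ± 0.0134 (SD, n = 23), from 0.951 to 1.004, and over libraries its log2 level followed GCC-1-5 with Pearson r = 0.9995. Treated as 1 set with those 3 genes, it gave a chi-square of 4.98 per degree of freedom, so CCC-1-1 was close to them yet slightly lower than an even split. How multi-mapping reads were assigned is not given in the sources used, and whether these 4 genes share reads was not tested. The 4 genes together held 32.3% ± 5.23 of the tRNA table and 80.1% ± 2.81 of the glycine signal (SD, n = 23). Without CCC-1-1, the other 4 CCC genes summed to 1284 ± 153 in air, 1211 ± 74.7 at 0.4 ppm and 1311 ± 313 at 0.8 ppm.

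**Figure D2:**
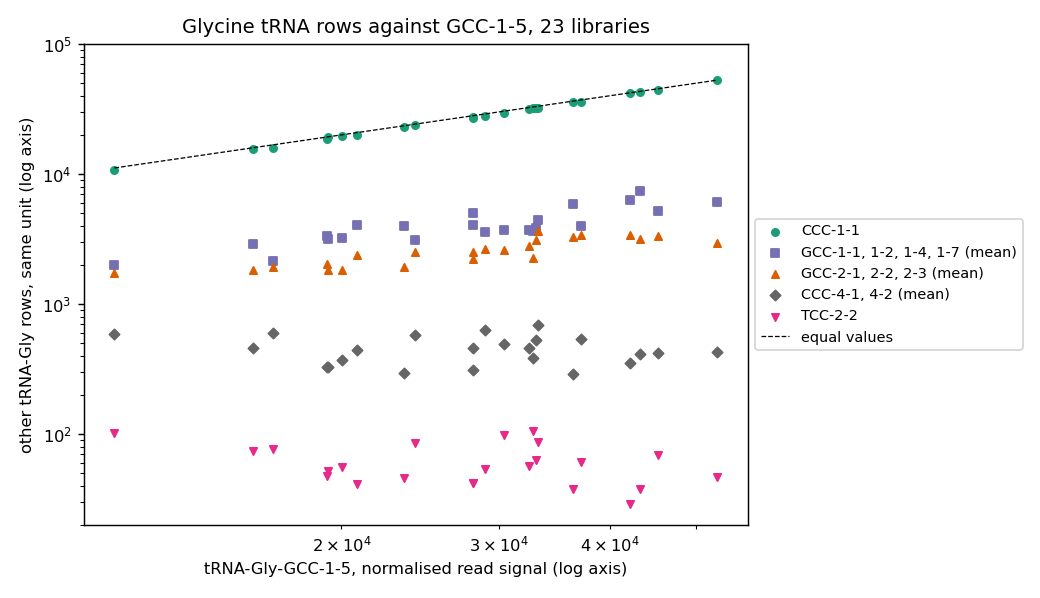
Level of other glycine tRNA genes (vertical, log axis) against GCC-1-5 (horizontal, log axis) in the 23 libraries, with a dashed line at equal values. CCC-1-1 lies on the line (ratio to the upper GCC copies 0.951 to 1.004), the lower GCC-1 copies and the GCC-2 copies climb less steeply below it, and the CCC-4 copies and TCC-2-2 show no such climb.

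At 0.4 ppm the mean of the GCC sum was close to that in air, and its interval was wide. In air its values were 93443 at the lowest, 123007 at the median and 164547 at the highest, with a mean of 122414 ± 24920 (SD, n = 7). At 0.4 ppm they were 66631, 117294 and 194254, with a mean of 125910 ± 42163 (SD, n = 8). The 0.4 ppm libraries spread to both sides of the air range, so the groups overlap. The log2 fold change, on the log2(value + 1) scale that all fold changes here use, was -0.01 ± 0.24 (SE), with a 95% interval of -0.50 to 0.49 (limma adjusted p = 0.999 over 55 sums). With the library set in the model it was 0.05 ± 0.24 (SE, limma adjusted p = 0.923), and within the first and second set it was -0.33 ± 0.48 and 0.28 ± 0.23 (SE).

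At 0.8 ppm the GCC sum stood lower on average, and the difference did not pass the test. Its lowest, median and highest values were 47896, 79147 and 170862, with a mean of 95506 ± 40164 (SD, n = 8). Of the 8 libraries, 5 lay below the lowest air library and 1 above the highest, and the groups overlap. Against air the log2 fold change was -0.44 ± 0.24 (SE), with an interval of -0.93 to 0.06 (limma unadjusted p = 0.0812, adjusted p = 0.895). Against 0.4 ppm it was -0.43 ± 0.24 (SE), with an interval of -0.91 to 0.05 (limma unadjusted p = 0.0767, adjusted p = 0.716). Scaled to the table total the 2 fold changes were -0.14 and -0.15 (limma adjusted p = 0.665 and 0.451), and under quantile normalization both were -0.12. Glycine is itself a large part of the table total, so a change in glycine also moves the total it is divided by. With the library set in the model they were -0.34 ± 0.25 and -0.40 ± 0.23 (SE, limma adjusted p = 0.757 and 0.493). Within the first set, where air had 2 libraries, they were -0.58 ± 0.46 and -0.25 ± 0.37, and within the second set -0.26 ± 0.25 and -0.55 ± 0.26 (SE, limma adjusted p of 0.309 or more in each). At 0.8 against 0.4 ppm in the second set, limma gave an unadjusted p under 0.05 for 2 of 3 glycine sums, beside 8 of 55. For genes it was 9 of 25, beside 47 of 273. In the first set these counts were 0 of 3 beside 5 of 55, and 1 of 25 beside 23 of 273. The contrasts with air share the same air rats, and both contrasts of 0.8 ppm share the same 0.8 ppm rats.

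**Figure D3:**
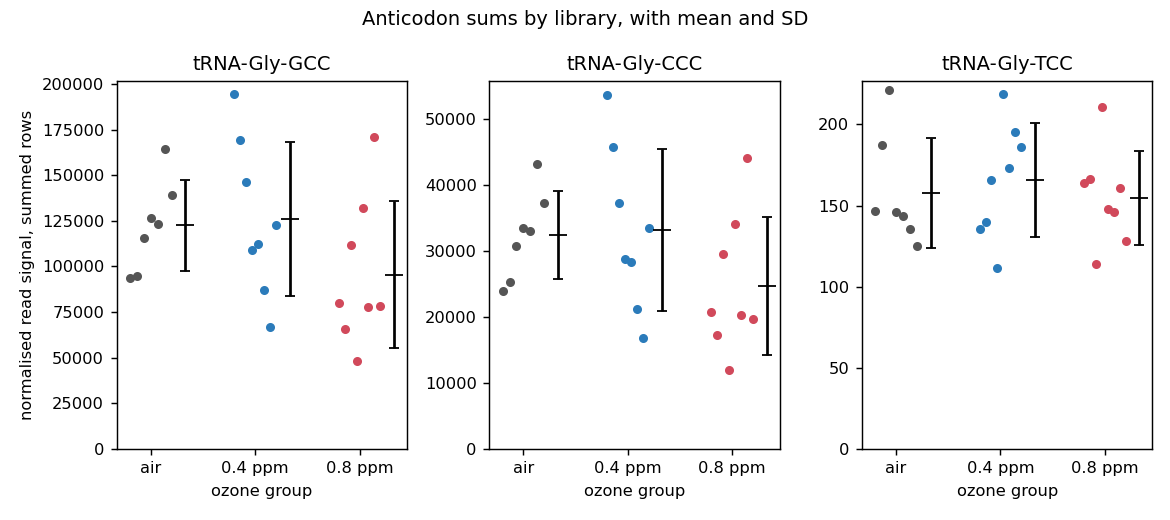
Summed normalised read signal of tRNA-Gly-GCC, tRNA-Gly-CCC and tRNA-Gly-TCC by group, 1 point per library in replicate order, with the mean and SD beside each group; the vertical axes start at 0. In the GCC and CCC panels 5 of 8 libraries at 0.8 ppm lie below every air library and 1 lies above, while the TCC groups cover the same range.

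The most abundant single member, GCC-1-5, showed the same layout. In the 7 air libraries its lowest, median and highest values were 23474, 32452 and 42069. At 0.4 ppm they were 15935, 30458 and 52778. At 0.8 ppm they were 11130, 19674 and 43206, and the 3 highest libraries there were replicates 3, 5 and 7 at 28954, 33254 and 43206, while the other 5 lay between 11130 and 20036. The 0.8 ppm group thus had most of its libraries low and a few inside or above the air range. The log2 fold change was -0.03 ± 0.26 (SE) at 0.4 ppm and -0.50 ± 0.26 (SE) at 0.8 ppm, both against air (limma unadjusted p = 0.895 and 0.0636, adjusted p = 0.983 and 0.935). Fitted with the library set these became 0.04 ± 0.25 and -0.37 ± 0.26. GCC-1-3, the copy with the second smallest unadjusted p among glycine genes for 0.8 against 0.4 ppm, stood at 16143, 30468 and 53210 (lowest, median and highest) at 0.4 ppm and at 11124, 19619 and 42920 at 0.8 ppm. Its log2 fold change there was -0.47 ± 0.25 (SE, limma unadjusted p = 0.0695, adjusted p = 0.751).

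Under the authors' scaling the coefficient of variation of the GCC sum was larger in both ozone groups than in air, and that of the TCC sum was not. The coefficient of variation of the GCC sum was 20.4% in air, 33.5% at 0.4 ppm and 42.1% at 0.8 ppm. As a share of the tRNA table, of which it is itself a large part, GCC varied less, at 11.1%, 12.4% and 16.3%. The TCC sum varied by 21.6%, 21.2% and 18.8% under the authors' scaling, and by 24.8%, 38.8% and 38.3% as a share of the table. Within the second library set the GCC sum varied by 13.7%, 26.8% and 32.98%, and within the first by 39.0% over 2 air libraries, 33.3% and 51.3%. The TCC sum varied by 23.7%, 21.8% and 18.7% in the second set, and by 5.57%, 12.8% and 19.0% in the first. On the log2 scale the SD of the GCC sum was 0.29, 0.50 and 0.59 for air, 0.4 ppm and 0.8 ppm, beside medians over all 55 sums of 0.32, 0.47 and 0.43. That of the TCC sum was 0.29, 0.32 and 0.27, larger at 0.4 ppm than in air and smaller at 0.8 ppm. Most sums widened: 47 of 55 had a larger SD at 0.4 ppm than in air and 37 of 55 at 0.8 ppm. From the widest down, the GCC sum ranked 35 in air, 24 at 0.4 ppm and 11 at 0.8 ppm. No test of spread was made.

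The CCC sum followed the GCC sum, since CCC-1-1 makes up most of it. Its mean was 32445 ± 6687 in air (SD, n = 7), 33164 ± 12253 at 0.4 ppm (SD, n = 8) and 24724 ± 10470 at 0.8 ppm (SD, n = 8). The log2 fold change against air was -0.03 ± 0.25 (SE) at 0.4 ppm (limma adjusted p = 0.953) and -0.47 ± 0.25 (SE) at 0.8 ppm, with an interval of -0.98 to 0.04 (limma unadjusted p = 0.0673, adjusted p = 0.895). Once the library set was in the model these were 0.04 ± 0.24 and -0.36 ± 0.25. Scaled to the table total the 0.8 ppm value was -0.17, and under quantile normalization -0.10. CCC-1-1 itself had the smallest unadjusted p of the glycine genes at 0.8 ppm against air. Its lowest, median and highest values were 22984, 31902 and 41930 in air, 15615, 29949 and 52404 at 0.4 ppm, and 10663, 19549 and 42580 at 0.8 ppm, with overlap between all groups. Its log2 fold change at 0.8 ppm against air was -0.50 ± 0.26 (SE, limma unadjusted p = 0.0622, adjusted p = 0.935), and -0.38 ± 0.26 with the library set in the model.

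The other CCC genes did not share 1 layout. CCC-2-1, which had the smallest unadjusted p among glycine genes for 0.8 against 0.4 ppm, stood at 156, 180 and 378 (lowest, median and highest) in air, at 172, 244 and 358 at 0.4 ppm and at 107, 172 and 439 at 0.8 ppm. Its 0.8 ppm libraries included both the lowest and the highest value of all 23. For 0.8 against 0.4 ppm its log2 fold change was -0.44 ± 0.23 (SE, limma unadjusted p = 0.0631, adjusted p = 0.751), and -0.48 ± 0.21 with the library set in the model (limma unadjusted p = 0.0309, adjusted p = 0.549). CCC-4-1 and CCC-4-2 had positive fold changes at 0.8 ppm, of 0.08 and 0.05 against air and 0.25 and 0.27 against 0.4 ppm on the log2 scale, and neither passed the test. With CCC-1-1 counted under GCC, an alternative chosen after the data were seen, the CCC difference at 0.8 ppm against air was 0.0014 and that of GCC -0.45 on the log2 scale.

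The TCC genes were low in every group. Their sum averaged 157.8 ± 34.04 in air (SD, n = 7), 165.8 ± 35.22 at 0.4 ppm (SD, n = 8) and 154.8 ± 29.09 at 0.8 ppm (SD, n = 8), and the 3 groups overlap almost fully. The log2 fold change against air was 0.07 ± 0.17 (SE) at 0.4 ppm and -0.02 ± 0.17 (SE) at 0.8 ppm, with intervals of -0.28 to 0.42 and -0.37 to 0.33 (limma adjusted p = 0.822 and 0.957). For 0.8 against 0.4 ppm it was -0.09 ± 0.17 (SE, limma adjusted p = 0.967). Fitted with the library set the 3 values were 0.03, -0.08 and -0.11. TCC-2-2, the most abundant of them, stood at 29.0, 61.1 and 98.1 (lowest, median and highest) in air, at 37.5, 44.4 and 106 at 0.4 ppm and at 37.6, 54.8 and 102 at 0.8 ppm.

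The 2 glycine genes with the smallest unadjusted p at 0.4 ppm against air were both TCC genes, with medians of 11 and 12 estimated reads per library. TCC-1-1 stood at 6.50, 9.68 and 16.1 (lowest, median and highest) in air and at 7.85, 15.2 and 24.3 at 0.4 ppm, a log2 fold change of 0.51 ± 0.27 (SE, limma unadjusted p = 0.0673, adjusted p = 0.766). TCC-1-5 stood at 8.47, 9.92 and 16.6 in air and at 7.72, 12.6 and 27.8 at 0.4 ppm, a log2 fold change of 0.35 ± 0.31 (SE). Both genes also differed between the library sets, and with the set in the model the values were 0.39 ± 0.24 and 0.17 ± 0.25. Both pairs of groups overlap, and 1 read was worth 0.460 to 2.42 units of these values, depending on the library.

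No glycine gene passed the test in any contrast. limma called 0 of 25 at 0.4 ppm against air, 0 of 25 at 0.8 ppm against air and 0 of 25 at 0.8 against 0.4 ppm, beside 0% of all 273 entries in each contrast. At an unadjusted limma p under 0.05 glycine gave 0 of 25 in each contrast, beside 5.86%, 1.83% and 2.2% of all entries in the same order. The exact Wilcoxon rank-sum test also called none. Its unadjusted p was under 0.05 for 0 of 25 glycine genes in each contrast, beside 7, 17 and 3 of all 273 entries. Every one of the 25 genes was above 0 in all 23 libraries and passed the filter on low values. Of the 3 glycine sums 0 passed in each contrast, beside 0% of 55 sums, and 0 of 3 had an unadjusted p under 0.05, beside 3.64%, 0% and 1.82%. The smallest limma adjusted p of a glycine gene was 0.766, 0.935 and 0.751 in the same order. With the library set in the model limma again called 0 of 25 glycine genes in each contrast, beside 0% of all entries. At an unadjusted p under 0.05 that fit gave 0, 2 and 3 of 25 glycine genes, beside 12, 10 and 17 of all 273 entries.

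The signs of the fold changes at 0.8 ppm lay mostly on the negative side. At 0.4 ppm against air 13 of 25 glycine genes were negative, beside 52% of all entries, with a median log2 fold change of -0.03 beside -0.01. At 0.8 ppm against air 19 of 25 were negative, all 11 GCC genes among them, beside 52.4%, with a median of -0.25 beside -0.02. At 0.8 against 0.4 ppm 22 of 25 were negative, again with all 11 GCC genes, beside 51.6%, with a median of -0.27 beside -0.01. Of the glycine sums 2, 3 and 3 of 3 were negative, beside 54.5%, 61.8% and 58.2% of the 55 sums. Under the fit with the library set 11, 21 and 22 of 25 glycine genes were negative, again with all 11 GCC genes in both contrasts of 0.8 ppm. Scaled to the table total in place of the authors' scaling, which moves the median log2 fold change of all entries from -0.02 to 0.28 at 0.8 ppm against air, 8 of 25 glycine genes and 5 of 11 GCC genes were negative. The median there was 0.05 for glycine genes and 0.01 for GCC genes, below the 0.28 of all entries. That total includes the glycine signal itself, so these counts and medians depend on it.

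**Figure D4:**
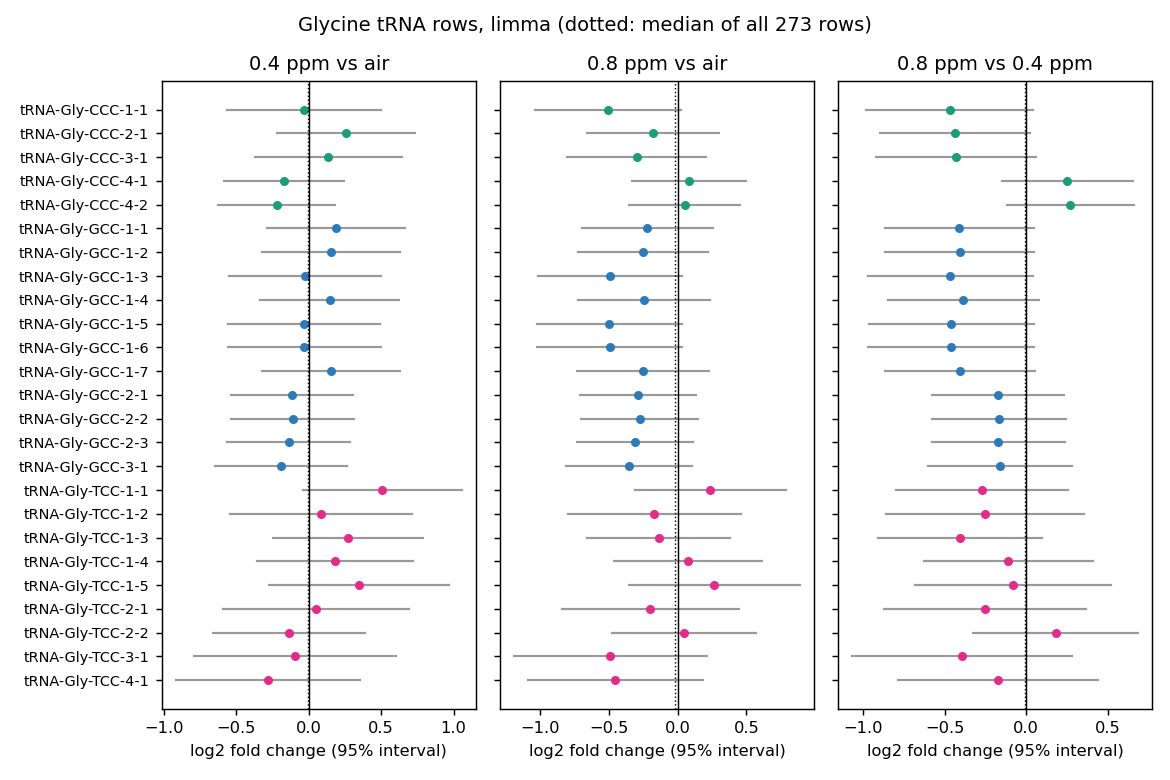
Log2 fold change and 95% interval of each glycine tRNA gene in the 3 contrasts (limma), with CCC genes in green, GCC genes in blue and TCC genes in pink, a solid line at 0 and a dotted line at the median of all 273 entries. All 11 GCC genes lie left of 0 in both contrasts of 0.8 ppm under the authors' scaling, and every interval reaches 0.

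Weighting each library in limma by how much it varied about its group was the 1 alternative that gave glycine calls. Under it 22 of 273 entries were called at 0.8 ppm against air (8.06%), among them 6 of 25 glycine genes: CCC-1-1, GCC-1-3, GCC-1-5, GCC-1-6, GCC-2-3 and GCC-3-1, all lower. Their log2 fold changes ranged from -0.65 to -0.50, with limma adjusted p = 0.0394 for 5 of them and 0.0424 for GCC-3-1. The GCC sum stood at -0.55 and the CCC sum at -0.59, with limma adjusted p = 0.0501 for both. The weights ran from 0.319 to 3.398, and the 0.8 ppm libraries with the lowest weights, replicate 5 at 0.329 and replicate 7 at 0.406, were also those with the highest GCC sums of their group, at 132171 and 170862. With both the weights and the library set in the model limma called 0 of 273 entries at 0.8 ppm against air, and the GCC sum stood at -0.30. At an unadjusted p under 0.05 that fit gave 4 of 25 glycine genes, beside 25 of all 273 entries. The smallest limma adjusted p was 0.161 for a glycine gene and 0.0794 over all entries.

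As a share of the tRNA table, glycine differed less between groups than in the authors' scaling. Glycine makes up much of the total, so a change in glycine alone moves its share by less than its value. Changes in other tRNAs move the share as well. At 0.8 ppm against air 31 of the 52 other sums had negative and 21 positive log2 fold changes, with Leu-CAA at -0.43. The part of each in the smaller difference was not tested. It held 41.3% ± 4.56 in air (SD, n = 7, from 35.9% to 48.9%), 41.7% ± 5.43 at 0.4 ppm (SD, n = 8, from 33.6% to 50.1%) and 37.7% ± 6.14 at 0.8 ppm (SD, n = 8, from 27.2% to 46.9%). At 0.8 ppm 2 of 8 libraries lay below the air range and none above it. Within the first library set the 3 means were 44.5%, 38.5% and 37.4%, and within the second 40.0%, 44.8% and 38.0%. The 4 abundant genes held 81.4% of the glycine signal in air, 80.5% at 0.4 ppm and 78.6% at 0.8 ppm, with 79.9%, 77.6% and 77.7% in the first set and 82.0%, 83.4% and 80.2% in the second. The remaining 21 glycine genes held 7.66%, 7.99% and 7.95% of the table in the same order, a mean share that was not smaller at 0.8 ppm than in air.

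Ratios between genes of 1 library do not depend on the scaling, and they were compared as a description. The upper GCC-1 copies stood 7.87 ± 1.23 times the lower copies in air (SD, n = 7), 6.97 ± 1.61 times at 0.4 ppm (SD, n = 8) and 6.60 ± 1.01 times at 0.8 ppm (SD, n = 8). Every library of the first set had a lower ratio than every library of the second, and the groups differ in how many of their libraries each set held. Within the first set the ratio was 6.23 ± 0.57 (SD) in the 2 air libraries, 5.62 ± 0.41 in the 4 at 0.4 ppm and 5.89 ± 0.27 in the 5 at 0.8 ppm. Within the second it was 8.52 ± 0.56 in 5, 8.33 ± 0.99 in 4 and 7.77 ± 0.26 in 3 libraries, and in both sets the groups overlap. The log2 ratio of the GCC sum to the CCC sum was 1.92 in air, 1.94 at 0.4 ppm and 1.95 at 0.8 ppm, and that of GCC to TCC was 9.60, 9.52 and 9.19. Within the first set GCC to CCC was 1.95, 1.997 and 1.96 and GCC to TCC 9.78, 9.05 and 9.02, and within the second they were 1.91, 1.88 and 1.93, and 9.53, 10.00 and 9.46. Against tRNA-Glu-CTC, another abundant fragment source in sperm, the log2 ratio of GCC was 2.32 ± 0.12 in air, 2.12 ± 0.26 at 0.4 ppm and 2.04 ± 0.23 at 0.8 ppm (SD), with 2.37, 2.16 and 1.96 in the first set and 2.30, 2.08 and 2.18 in the second. Against tRNA-Leu-CAA it was 0.84, 1.19 and 0.84, with 1.25, 1.2004 and 0.90 in the first set and 0.67, 1.18 and 0.73 in the second. These ratios were not tested.

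Across libraries under the authors' scaling, the entries whose log2 level was most like GCC-1-5 were GCC-1-3, GCC-1-6 and CCC-1-1. Entries outside tRNA-Gly came among the other GCC genes. Over the 23 libraries Pearson r was 0.9997 for GCC-1-3 and GCC-1-6 and between 0.859 and 0.9997 for all GCC genes, while CCC genes went down to -0.11 and TCC genes ran from -0.41 to 0.08, beside a median of -0.08 over all entries. Within the first and second library set r was -0.53 and -0.50 for CCC-4-1 and -0.56 and -0.49 for CCC-4-2. It was 0.954 and 0.832 for CCC-2-1 and 0.969 and 0.877 for CCC-3-1. TCC genes ran from -0.91 to 0.56 in the first set and from -0.43 to 0.11 in the second. The 5 closest entries outside tRNA-Gly were tRX-Gly-NNN-90-1 (0.897), tRNA-Glu-CTC-1-6 (0.887), tRNA-Glu-CTC-1-7 (0.882), tRX-Ala-NNN-16005-1 (0.846) and tRX-Glu-NNN-3-1 (0.783). They ranked 5, 7, 8, 16 and 17 among all entries, with GCC-1-5 itself included. On shares of the table the same 5 had r = 0.494, 0.600, 0.593, 0.452 and 0.309. Their r on shares was 0.856, 0.317, 0.311, 0.930 and 0.517 within the first library set. In the second it was 0.772, 0.835, 0.815, 0.696 and 0.487. The likeness of most GCC genes was lower on shares as well: r was 0.998 for both other upper copies, 0.381 to 0.408 for the 4 lower GCC-1 copies, 0.290 for GCC-3-1 and -0.13 to -0.08 for the 3 GCC-2 copies. Within the first and second library set the lower GCC-1 copies had r of at least 0.906 and 0.761 on shares, and the GCC-2 copies remained between -0.21 and -0.07. The libraries are the points in each r, and entries of 1 library share its scaling, depth and any reads assigned to more than 1 gene.

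Among the sums, GCC followed CCC (r = 0.997), tRX-Gly-NNN (0.917) and tRNA-Glu-CTC (0.884) more closely than tRNA-Leu-CAA (0.449), and it had r = -0.37 with its own isotype's TCC sum. Within the first and second library set these values were 0.999 and 0.999, 0.975 and 0.951, 0.872 and 0.886, 0.447 and -0.05, and -0.33 and -0.29. A list of 8 other tRNAs known as fragment sources in sperm, namely Glu-CTC, Glu-TTC, Lys-CTT, His-GTG, Val-CAC, Val-AAC, Asp-GTC and Leu-CAA, gave 0 of 8 limma calls in each contrast, beside 0% of all 55 sums. Their median log2 fold changes were 0.17 at 0.4 ppm against air, -0.06 at 0.8 ppm against air and -0.10 at 0.8 against 0.4 ppm. For Glu-CTC, which has the closest pattern, the 3 values were 0.19, -0.16 and -0.35, and for Leu-CAA they were -0.36, -0.43 and -0.08. Val-CAC and Val-AAC both stood at -0.44 at 0.8 against 0.4 ppm, beside -0.43 for Gly-GCC, and 2 of the 8 sums were positive there. A list of 15 symbols named genes for glycyl-tRNA charging and for tRNA cleavage and modification, with alternative symbols such as Gars1 and Gars both included. Of these symbols 0 had an entry among the 617 Ensembl transcripts, so the levels of these genes were not analysed here.

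Levels of other cell types and depth were set beside GCC-1-5 as 6 relations over the 23 libraries, and none passed after adjustment. With the summed male germ cell miRNAs Pearson r was -0.43 (permutation p = 0.0422, adjusted p = 0.235) and Spearman rho -0.48 (permutation p = 0.0210, adjusted p = 0.118). Without the 2 libraries farthest from the median r was -0.52, and within air, 0.4 ppm and 0.8 ppm it was -0.75, 0.07 and -0.74. Within the first and second library set it was -0.53 and -0.57. With the reads of the tRNA table r was -0.37 (permutation p = 0.0783, adjusted p = 0.235) and rho -0.44 (permutation p = 0.0393, adjusted p = 0.118), with r = -0.56 without the 2 farthest libraries -0.73, 0.06 and -0.73 within the groups, and -0.66 and -0.10 within the library sets. The germ cell sum averaged 266709 ± 29802 in air, 206831 ± 40609 at 0.4 ppm and 261906 ± 71953 at 0.8 ppm (SD), and its part in the glycine levels was not tested. For the epithelial, leukocyte, muscle and stroma, and erythrocyte miRNA lists r was 0.32, 0.27, 0.21 and 0.07, with permutation adjusted p of 0.283, 0.320, 0.412 and 0.759. Spearman rho was 0.35, 0.26, -0.02 and -0.03 (permutation adjusted p of 0.209, 0.335, 0.937 and 0.937), and without the 2 farthest libraries r was 0.45, 0.22, -0.01 and 0.28. The relations differed between groups in size and sign. Within air, 0.4 ppm and 0.8 ppm r was 0.29, -0.13 and 0.61 for the epithelial list, 0.51, -0.53 and 0.77 for the leukocyte list, 0.10, -0.17 and 0.59 for muscle and stroma, and 0.53, -0.22 and 0.44 for erythrocytes. Within the first and second library set the same lists gave 0.35 and 0.43, 0.30 and 0.59, 0.74 and -0.0022, and -0.0034 and -0.14. Mean sums in air, 0.4 ppm and 0.8 ppm were 7104, 9955 and 7600 for the epithelial list and 1161, 1433 and 1154 for leukocytes. They were 332, 458 and 338 for erythrocytes and 12264, 16956 and 20752 for muscle and stroma. The muscle and stroma SDs were 3614, 6330 and 22828, and the highest 0.8 ppm library stood at 76992. Medians of that list were 10302, 15192 and 12999.5, lower at 0.8 ppm than at 0.4 ppm. The part of these lists in the glycine levels was not tested.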

How the data were processed

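Per the submitters' processing notes, Partek, Bowtie 1.0.0 and the build rn6 were used; how reads were assigned to tRNA genes is not given in the sources used. Single-end reads of 75 cycles came from RNA under 200 nt, with RNA integrity numbers of 2 to 4 per the labels' protocols. The deposited tRNA and miRNA tables hold a normalised read signal that the authors had scaled between libraries: the median log2 ratio to the geometric mean was the same (0.0163) in every tRNA library. Read numbers were estimated from the smallest step between low values and used for description only. Tests used limma 3.58.1 (R 4.3.3) on log2(value + 1) with trend and robust moderation, 3 groups in 1 model, over entries above 0 in at least 8 of 23 libraries (273 of 273), and again over 55 sums, with two-sided Benjamini-Hochberg adjusted p at 0.05. Shares, ratios and correlations were computed in Python 3.11.15. Named genes were the most abundant gene of each anticodon and, in each contrast, the 2 glycine genes with the smallest unadjusted p; CCC-4-1 and CCC-4-2 were named after their values were seen. Alternatives were pseudocounts of 0.5 and 10, no filter and a mean of at least 50, other scalings, library weights, a rank test, 2-group fits and leaving out each rat. Added after the data were seen were CCC-1-1 counted with GCC and, alone or with library weights, the library set, read from the S numbers and column order of the miRNA table. The members and lists were chosen with earlier results of these data known. The limma code was tested on simulated data.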

Additional observations from a re-analysis of the deposited data

Results flagged for a closer look

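In 4 of 42 groups tested, 1 library stood apart from the rest of its group, where chance alone gives about 1 in 20 groups. TCC-1-1 was highest in air replicate 2, at 16.1 against 6.50 to 10.6 in the other 6 air libraries. TCC-1-5 was highest in air replicate 6, at 16.6 against 8.47 to 11.2. CCC-2-1 was highest in air replicate 6 as well, at 377.5 against 156 to 227, and that library also had the highest GCC sum of the air group. In the 0.8 ppm group CCC-2-1 was highest in replicate 7, at 438.9 against 107 to 247, and that library again had the highest GCC sum of its group.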

How the results depend on the processing

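The count of glycine genes called was 0 in all 3 contrasts under every alternative run but 1: library weights gave 6 at 0.8 ppm against air. The GCC sum stayed negative in both contrasts of 0.8 ppm under every alternative, at -0.14 and -0.15 when scaled to the table total. At 0.4 ppm against air that scaling turned the GCC sum to 0.015, and the TCC sum turned to -0.023 with library weights and to -0.13 with its most abundant gene alone. At 0.8 ppm against air the TCC sum turned to 0.28 scaled to the table total, to 0.079 as a difference of medians beside the rank test and to 0.046 with its most abundant gene. At 0.8 against 0.4 ppm it turned to 0.19 scaled to the table total and to 0.18 with its most abundant gene, and the CCC sum turned to 0.032 under quantile normalization. With CCC-1-1 counted under GCC, the CCC sum was 0.0014 at 0.8 ppm against air and 0.079 at 0.8 against 0.4 ppm. With the library set in the model, chosen after the data were seen, the GCC and CCC sums at 0.4 ppm against air turned to 0.052 and 0.042. With that set and library weights together 0 glycine genes were called in each contrast, and the TCC sum at 0.4 ppm against air turned to -0.065. The cause of these turns was not tested.

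Leaving out each rat in turn gave 0 called genes in every fit. At 0.4 ppm against air the sums then ranged from -0.11 to 0.11 for GCC, -0.14 to 0.10 for CCC and 0.0052 to 0.15 for TCC. At 0.8 ppm against air they ranged from -0.57 without 0.8 ppm replicate 7 to -0.31 without 0.8 ppm replicate 4 for GCC, from -0.61 to -0.34 for CCC and from -0.090 to 0.061 for TCC. At 0.8 against 0.4 ppm they ranged from -0.57 to -0.30 for GCC, -0.58 to -0.31 for CCC and -0.17 to -0.03 for TCC. No paired analysis was possible because the replicate numbers only name the rats and the labels pair none of them. Depth limits the TCC genes most, at a median of 157 estimated reads for all 9 together.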

Other observations

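The 6 tRX-Gly-NNN entries, which the member rule left out, summed to 20629 ± 3282 in air (SD, n = 7), 24193 ± 6133 at 0.4 ppm (SD, n = 8) and 18358 ± 8704 at 0.8 ppm (SD, n = 8), and 1 of them, tRX-Gly-NNN-90-1, had a mean level of 19155 over all libraries. As a share of the tRNA table they held 5.57% ± 0.955, 6.45% ± 0.477 and 5.74% ± 1.27 in the same order. All 8 libraries at 0.4 ppm lay above the air median of 5.10%, and none lay above the highest air library at 7.36%. In the first library set, with 2 air libraries, the shares averaged 6.90%, 6.62% and 6.21%, and in the second 5.04%, 6.27% and 4.96%. Against air the log2 fold change of their sum was 0.20 at 0.4 ppm and -0.27 at 0.8 ppm. At 0.8 against 0.4 ppm it was -0.47 ± 0.22 (SE), with an interval of -0.92 to -0.02 (limma unadjusted p = 0.0397, adjusted p = 0.716). In that contrast 1 of 55 sums had an unadjusted p under 0.05.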
